A study of Mus musculus with 35 samples.

Results

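The Zscan4 genes are closely related copies of a zinc-finger gene, some of them annotated as pseudogenes, that stand in tandem on mouse chromosome 7. The 6 copies Zscan4a to Zscan4f were taken by symbol, of 49603 annotated genes. With them were taken the peaks of HA-tagged NELFA whose summit, counted from 0 as in the deposited list, lay from 10500000 to 11500000 on chromosome 7 of the mm10 assembly, which gave 94 of 59485 peaks. The rule itself uses names and positions and no peak value. Each summit was given to the copy it lay in or within 1 kb of, and otherwise to the sequence between or beside the copies. The study concerned the place of NELFA, a protein of the negative elongation factor, in the 2-cell-like state of mouse embryonic stem cells. The ChIP-seq used E14 cells, an established mouse embryonic stem cell line, with an added NELFA gene that carried a StrepHA tag and was switched on by doxycycline. All 7 ChIP-seq libraries came from cells given doxycycline at 0.4 µg/ml for 16 h, in medium with serum, LIF and 2i. HA antibodies precipitated 4 libraries of 3 replicates, 1 of which used another HA antibody than the rest, and 3 libraries were input chromatin, the sole control. None of the 7 came from uninduced or untagged cells, so antibody background and binding of the tagged protein cannot be told apart. One peak list was deposited for the ChIP-seq, with no value per library, and how the libraries were pooled for it is not stated. The 20 RNA-seq and 8 ATAC-seq libraries of the series are not analysed here.

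Zscan4 encodes a protein with a SCAN domain and zinc fingers. It is a classic mark of the 2-cell embryo, where the mouse genome is first transcribed, and of the few embryonic stem cells in a culture that pass through a similar state. In these cells it is known for its part in telomere lengthening and genome stability, and the transcription factor Dux is a known activator of the genes. The negative elongation factor holds RNA polymerase II shortly after the start of transcription, so a paused gene typically carries it close to the start site.

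The start sites of the protein-coding copies are shown first, because the peaks of 3 of them had their summits there. RefSeq gives a promoter window of 250 bases before to 50 after the start, on GRCm38.p6 (the assembly mm10 names), for 4 of the 6 members: Zscan4b and Zscan4d on the minus strand, Zscan4c and Zscan4f on the plus strand. Zscan4a (a transcribed pseudogene) and Zscan4e (a pseudogene) are named without one. The windows of Zscan4b (chr7:10905001-10905300), Zscan4c (chr7:11005495-11005794) and Zscan4d (chr7:11166099-11166398) are printed 5′ to 3′ in the direction of transcription. Capitals mark the TATA box TATAAA and an 11-base stretch upstream that is 1 base away from the palindromic Dux motif TGATTNAATCA.

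Zscan4b: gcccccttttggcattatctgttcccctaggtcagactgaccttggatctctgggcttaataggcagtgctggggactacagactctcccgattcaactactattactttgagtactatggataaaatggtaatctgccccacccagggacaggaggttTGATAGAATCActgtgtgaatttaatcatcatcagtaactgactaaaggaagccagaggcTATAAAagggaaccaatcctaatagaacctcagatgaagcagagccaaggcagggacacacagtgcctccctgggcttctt
Zscan4c: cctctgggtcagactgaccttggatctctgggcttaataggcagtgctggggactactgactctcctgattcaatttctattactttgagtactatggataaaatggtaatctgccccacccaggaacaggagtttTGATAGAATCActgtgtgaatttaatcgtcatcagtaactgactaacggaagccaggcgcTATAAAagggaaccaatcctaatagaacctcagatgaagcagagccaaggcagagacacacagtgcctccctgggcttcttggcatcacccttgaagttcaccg
Zscan4d: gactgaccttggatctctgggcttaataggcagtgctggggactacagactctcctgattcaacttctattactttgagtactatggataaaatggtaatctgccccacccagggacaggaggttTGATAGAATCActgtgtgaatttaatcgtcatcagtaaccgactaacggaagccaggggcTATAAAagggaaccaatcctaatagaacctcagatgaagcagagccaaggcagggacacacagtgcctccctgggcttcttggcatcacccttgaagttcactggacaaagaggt

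The 4 windows differed at few bases. Identity over the aligned part was highest between Zscan4c and Zscan4f, at 99.3% (275 of 277 bases, with a longest identical run of 127 bases). It was lowest between Zscan4b and Zscan4c, at 95.3% (264 of 277), and the other 4 pairs lay between 95.7 and 97.7%, with identical runs of 55 to 86 bases. No alignment needed a gap. How reads that align to several copies were treated, and how long the reads were, is not stated. Signal of one copy therefore cannot be told apart from signal of another wherever they are identical.

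TATAAA was searched on both strands and occurred once in each of the 4 windows, with its first base 31 bases before the start in Zscan4b and Zscan4f, 54 before it in Zscan4c and 65 in Zscan4d. It is present in 14.2% of 27025 promoter windows of the same length. The annotated start thus lay farther downstream of the box in Zscan4c and Zscan4d than in the other two. An exact Dux motif was found in none of the 4 (0.0407% of all windows hold one), and a stretch with at most 1 mismatch in all 4 (0.77% of all windows), a search chosen after the data were seen. That stretch began 91 bases before the start in Zscan4b and Zscan4f, 114 before it in Zscan4c and 125 in Zscan4d, at the same distance from the TATA box each time. No window held a CA repeat of 6 units (0.932% of all windows). These matches describe letters in a window of 300 bases and show no binding site.

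A peak of the list lay over the start site of each protein-coding copy, though signal of identical stretches cannot be given to 1 copy. Peak intervals covered 100% of the promoter window in 4 of 4 copies, where 9.96% of the 27025 genes with a window had any interval over it. A summit lay inside the window in 3 of 4, against 5.01% of those genes, and within 50 bp of the start in the same 3, against 2.42%. With 1 kb on each side, Zscan4b held 9.51 summits per 10 kb, Zscan4c 10.3, Zscan4d 13.8 and Zscan4f 3.12. No share was computed for genes with as many summits, so the part of this density in the promoter shares was not tested. The list holds no value per library, so these shares stand without replicate error or a test, and near-identical copies are not independent of each other. All fold enrichments are the authors' own linear ratios, 1 per peak, and the −log10 q is the significance of the peak in the deposited list.

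Zscan4c (chr7:11005745-11010547, 4803 bp) had the summit closest to its start, 5 bp inside the gene. That peak had a fold of 3.36 and a −log10 q of 15.6, and reached from 440 bp before the start to 1266 bp after it. A further 5 peaks in the gene and 1 past its 3′ end had folds of 2 to 3.09. Peaks covered 70.1% of the gene, and a summit lay within 1 kb of both its ends.

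Zscan4d (chr7:11161643-11166148, 4506 bp) looked much the same. Its summit lay 24 bp before the start, in a peak of fold 3.45 (−log10 q 16.7) that reached from 579 bp before to 1257 bp after it. The remaining 8 of its 9 peaks had folds of 1.82 to 2.86, and 66.5% of the gene was covered.

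Zscan4b (chr7:10900740-10905050, 4311 bp) had the weakest and narrowest start-site peak. Its fold was 2.95 (−log10 q 11) with the summit 42 bp before the start, and it reached from 289 bp before to 228 bp after it. The 5 other peaks had folds of 1.86 to 2.27, and the farthest summit lay 2310 bp into the gene. The 3′ end had no summit within 1 kb, and 27.1% of the gene was covered.

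Zscan4f (chr7:11397915-11402318, 4404 bp) differed in shape. A single interval of 5057 bp, the widest of the 94, ran from 691 bp before the start to 4365 bp after it and covered 99.1% of the gene. Its fold was 3.54 (−log10 q 17.8) and its summit lay 949 bp after the start, so the start site was inside the peak but not at its top. One other summit, of a peak of fold 1.82, lay within 1 kb of the gene, 311 bp past its 3′ end. A further peak, of fold 2.5, began within that 1 kb but had its summit beyond it.

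The pseudogene copies also carried peaks. Zscan4e (chr7:11306369-11310682) had 5, and the strongest, of fold 3.54 (−log10 q 17.8), had its summit 82 bp outside the higher-coordinate end. It reached 446 bp beyond that end and 1210 bp into the gene, edges close to those of Zscan4c and Zscan4d at their starts, although the strand of Zscan4e is not in the table used. The other 4 had folds of 1.86 to 2.45, and 54.1% of the gene was covered. Zscan4a (chr7:10794241-10799065) had 3 peaks, of folds 1.82, 3.45 and 2.68. Its strongest lay inside the gene, 1050 bp from the higher-coordinate end, the nearest summit to that end was 579 bp inside it, and 22.3% of the gene was covered.

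By their best peak within the gene and 1 kb, the copies ranked Zscan4e and Zscan4f (3.54), Zscan4a and Zscan4d (3.45), Zscan4c (3.36) and Zscan4b (2.95). In the interval all 94 folds were whole multiples of 0.0454 (within 0.05 of a step). Neighbours in this order were tied or differed by few such steps, except Zscan4b, and none can be separated without a value per library. Coverage ordered the copies differently, with Zscan4f first at 99.1% and Zscan4a last at 22.3%.

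The summits of Zscan4c and Zscan4d can be set side by side by their distance from the start. In Zscan4c they lay 5, 1517, 2187, 2894, 3904, 4172 and 5429 bp after the start. In Zscan4d one lay 24 bp before it and the others 1619, 2233, 2989, 3506, 3823, 4244, 4661 and 5232 bp after it. In Zscan4b they lay 572 and 42 bp before the start and 592, 884, 1762 and 2310 bp after it, and in Zscan4f 949 and 4714 bp after it. Summits were so close together within a copy that a match of positions between copies within 50 to 250 bp, which was tried, says little, and its counts are not given.

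**Figure D1:**
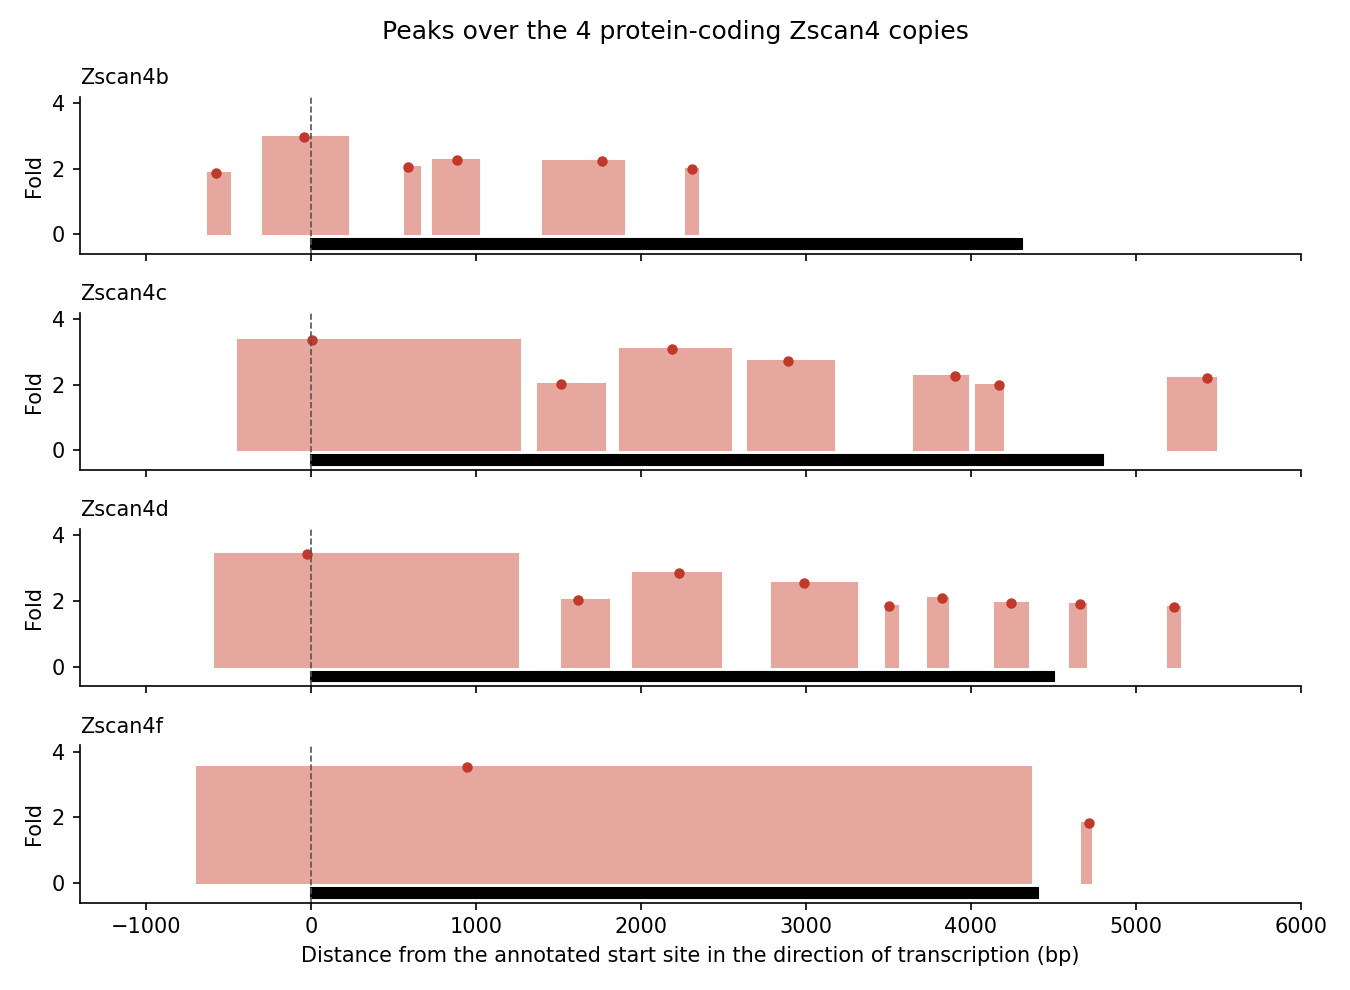
Peaks over Zscan4b, Zscan4c, Zscan4d and Zscan4f, each drawn by its distance from the annotated start (bp, in the direction of transcription) on the horizontal axis and its fold enrichment (linear ratio) on the vertical axis. Shaded boxes are the peak intervals, red points the summits, black bars the genes and the dashed line the start. Intervals cross the start in all 4 copies, with summits at the start in Zscan4b, Zscan4c and Zscan4d, and a single interval of 5057 bp over Zscan4f.

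All 6 copies had a summit within 1 kb of an annotated end, the 4 protein-coding ones and the 2 pseudogenes alike. Among all 49603 annotated genes this was so for 12.9%, among protein-coding genes for 18.9% and among pseudogenes for 7.23%. Peaks were frequent around most copies: 1 to 20 summits (median 5.5) lay 5 to 55 kb outside each copy, where the median gene had 1. Zscan4e and Zscan4f were at that median, with 1 each, and Zscan4c had 20. Of the 27712 genes with 1 to 20 such summits, 14.4% had a summit within 1 kb of an end. That range is wide and takes in the median gene, so this share does not account for the density around the copies. At the higher-coordinate end a summit was found in 6 copies and at the lower-coordinate end in 5, Zscan4b being the exception. The shares of all genes are for either end, and none was computed for a single end. The count was 5 within 500 bp, where Zscan4a dropped out, against 10.5% of all annotated genes. Zscan4f then counted only by its peak of fold 1.82 (−log10 q 1.56), with the summit 311 bp past its 3′ end.

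Chromosome 7 holds 3 further Zscan4 copies, annotated as pseudogenes, that were not among the members. Zscan4-ps1 (chr7:11065139-11069691), between Zscan4c and Zscan4d, had no peak, and the nearest peak edge was 6.65 kb away. Zscan4-ps2 (chr7:11514287-11518688), just past the interval, had 6 peaks, and the strongest, of fold 3.04, was 2036 bp wide with its summit 60 bp outside the lower-coordinate end. Zscan4-ps3 (chr7:11609308-11614112) had 3 peaks, the strongest of fold 3.13 inside the gene. A peak was thus present at 8 of the 9 annotated Zscan4 genes and pseudogenes.

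Few other genes of the interval had a peak at a boundary. Between Zscan4a and Zscan4f stood 24 annotated genes other than members, most of them pseudogene models. A summit at a boundary was found for 1 of them (4.17%), Gm18204, a pseudogene between Zscan4d and Zscan4e with a fold of 2.77. For genes that are mostly pseudogenes this is near the 7.23% of all annotated pseudogenes and does not set them apart. The 8 vomeronasal receptor genes and pseudogenes of the interval, of a family of pheromone receptors of sensory neurons, had none (0 of 8), a number too small to set against the 7.23% or the 18.9% of pseudogenes and protein-coding genes. Nlrp4b, of the NLR protein family, had none either. The nearest annotated genes outside the array, Vmn1r71 (44.7 kb before Zscan4a) and the pseudogene Gm18639 (13 kb after Zscan4f), had no peak at a boundary or inside.

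Along the interval, peaks stood in tight groups. The first 293 kb, up to 1 kb before Zscan4a, held 0 of the 94 summits. The copies with 1 kb on each side made up 3.92% of the bases and held 32 summits (34%, 95% Wilson interval 25.3 to 44.1%), which is 8.17 summits per 10 kb. The sequence between copies made up 57.1% of the bases and held 49 summits (52.1%, 42.1 to 61.9%), or 0.858 per 10 kb. The 96.7 kb after the last copy held 13 (13.8%, 8.26 to 22.2%), or 1.34 per 10 kb. Peaks covered 47.6% of the copies and their margins, 5.24% of the sequence between them and 2.48% of the sequence after them. These intervals cover counting error only, and neighbouring peaks are not independent.

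**Figure D2:**
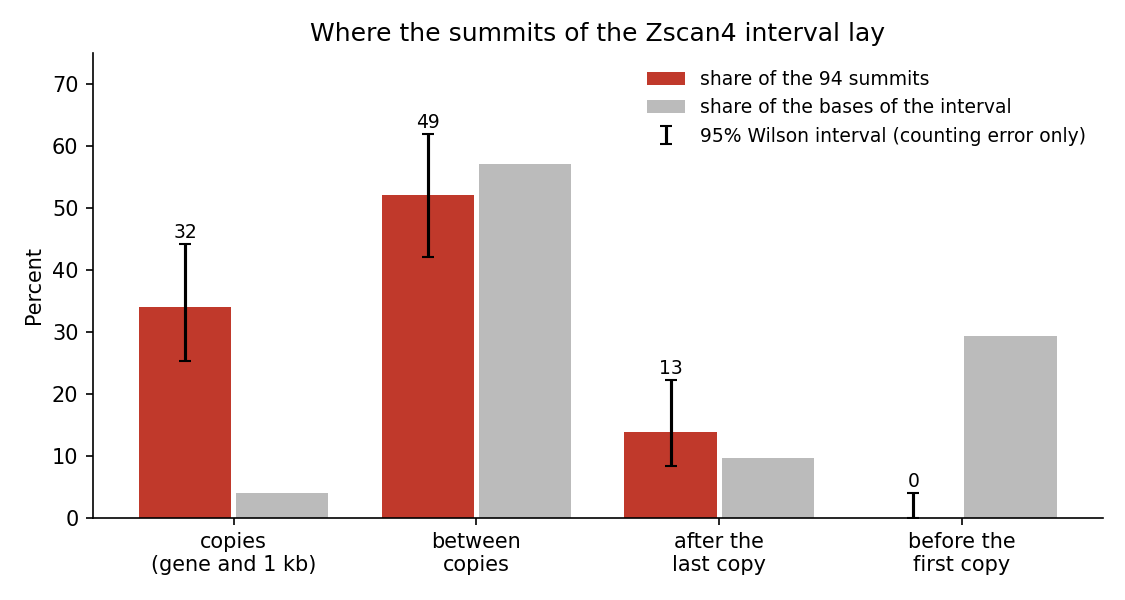
Share of the 94 summits (red bars, with the number of summits and 95% Wilson intervals) and share of the bases (grey bars) in 4 classes of the Zscan4 interval, in percent. The copies hold 34% of the summits on 3.92% of the bases, and the stretch before the first copy holds none on 29.3%.

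The gaps between copies were uneven. That between Zscan4c and Zscan4d held 20 summits in 149 kb (1.34 per 10 kb). That between Zscan4a and Zscan4b held 13 in 99.7 kb, a like density (1.3 per 10 kb). Between Zscan4d and Zscan4e there were 10 in 138 kb (0.723 per 10 kb). Between Zscan4b and Zscan4c there were 6 in 98.7 kb (0.608 per 10 kb). The 85.2 kb between Zscan4e and Zscan4f held none. Joined at distances of up to 2 kb, 80 of the 94 peaks (85.1%) fell into 12 groups of at least 3 peaks, of which 5 lay on a copy.

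The strongest signal of the interval lay outside every annotated gene. A group of 11 peaks at chr7:11021546-11036084, 11 kb downstream of Zscan4c, covered 87.2% of its 14.5 kb and held the only 2 peaks with a fold of 5 or more. These had folds of 6.85 (3000 bp wide, −log10 q 70.6) and 6.81 (3459 bp wide, −log10 q 69.8), ranks 568 and 576 of the whole list. No annotated gene overlaps this group. The next strongest were also between copies: 3.95 at chr7:10909973-10910875, 4.92 kb upstream of Zscan4b, and 3.77 for each of 2 peaks in a group of 10 at chr7:10824829-10832746, 25.8 kb from Zscan4a. A group of 6 at chr7:11169051-11178913 began 2.9 kb upstream of Zscan4d, with folds of 1.86 to 3.27. Another peak of the strongest group had a fold of 3.63, and the rest of the 10 strongest peaks were those of Zscan4e, Zscan4f, Zscan4a and Zscan4d. What these sequences are was not tested, since no genome sequence was used.

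**Figure D3:**
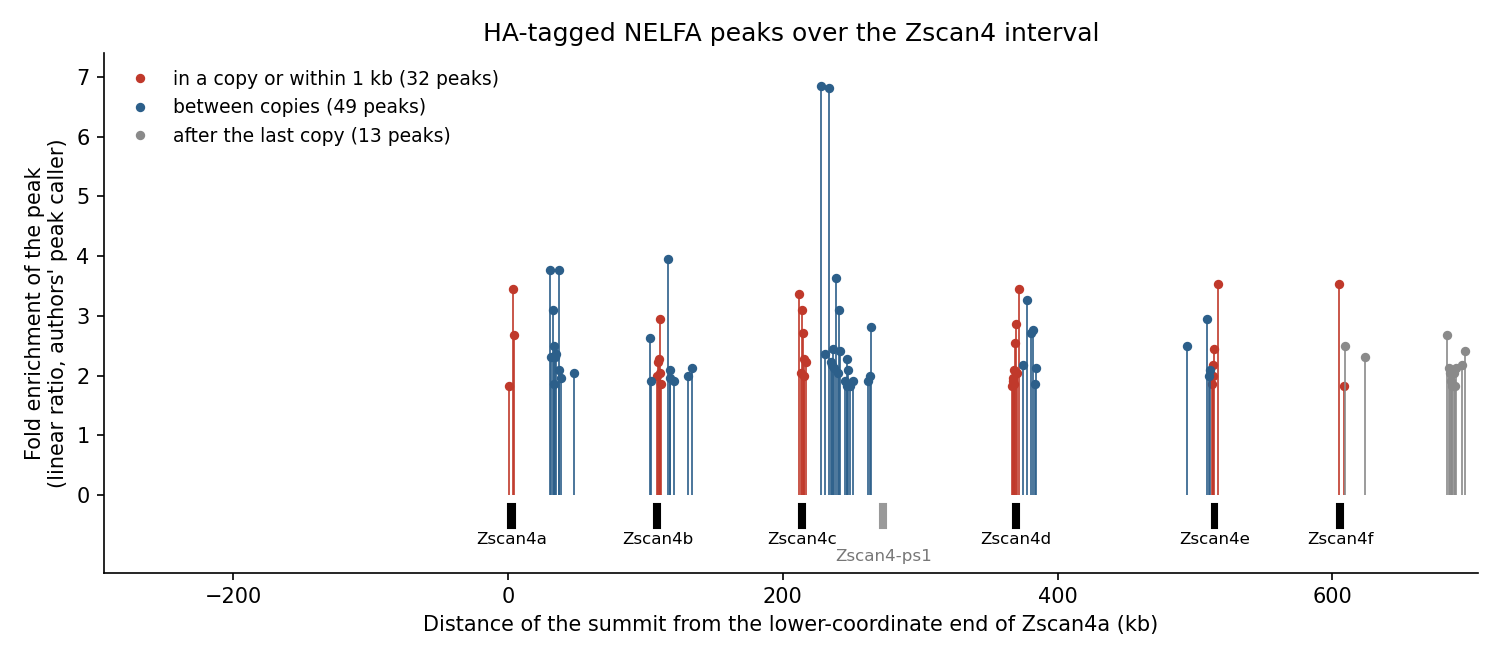
Fold enrichment (linear ratio) of the 94 peaks of the Zscan4 interval against the distance of the summit from the lower-coordinate end of Zscan4a (kb). Red marks summits in a copy or within 1 kb, blue those between copies, grey those after the last copy; black blocks are the 6 members and the grey block Zscan4-ps1. Peaks stand over each of the 6 copies, the 2 peaks above 6 lie between Zscan4c and Zscan4d, and no peak lies before Zscan4a.

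The peaks of the interval were wider than those of the rest of the list and about as strong. The median width was 282 bp in the interval and 170 bp in the 59391 other peaks, and 13 of 94 (13.8%) were at least 1 kb wide, against 4.31%. The median fold was 2.18 in the interval and 2.09 elsewhere. A fold of at least 3 was reached by 15 of 94 (16%) and by 14.2% of the others, and a fold of at least 5 by 2 (2.13%) and by 3%. Within the interval, the median fold was 2.2 in the copies and 2.18 between them. The start-site peaks stood higher than most peaks of that kind: of 1252 peaks with a summit in a promoter window, whose median fold was 2.22 and median width 203 bp, 18.8% had at least the fold of Zscan4b, the lowest of the 3. Differences in fold were not tested, since peaks are not replicates.

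The interval was among the densely covered parts of the genome. It held 94 summits, where the median of 5292 windows of 1 Mb (placed every 500 kb) was 11, and 204 windows (3.85%) held more. On chromosome 7 the median was 12 and 11 of 283 windows held more. The neighbourhood was dense too: windows of chromosome 7 that began at 7500000 to 9500000 held 147 to 247 summits, and the one that began at 11500000 held 34. From the first to the last copy there were 13.2 summits per 100 kb, against 2.23 on the rest of chromosome 7.

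**Figure D4:**
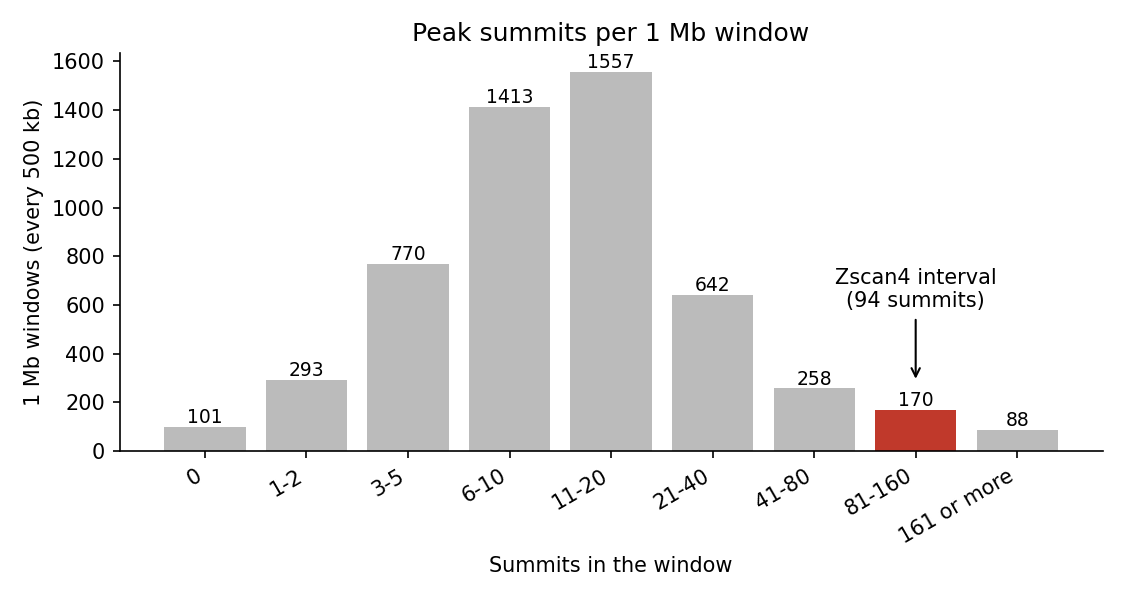
Number of 1 Mb windows (vertical axis, placed every 500 kb on chromosomes 1 to 19, X and Y) by the number of summits they hold (horizontal axis, in classes of unequal width). The Zscan4 interval, with 94 summits, falls in the red class, which holds 170 windows.

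Beside the 6 of 6 Zscan4 copies, or 8 of 9 with the 3 annotated Zscan4 pseudogenes that were not members, other repeated families had a boundary summit at some of their annotated genes and pseudogenes. For Tdpoz, genes with TRAF and BTB/POZ domains on chromosome 3, 5 of 8 annotated members (62.5%) had a summit within 1 kb of an end, and for the Usp17-like deubiquitinases of chromosome 7, 2 of 6 (33.3%). For the Obox homeobox genes, 6 of them protein-coding, it was 16 of 51 (31.4%). For all vomeronasal receptor 1 genes and pseudogenes of chromosome 7 it was 4 of 170 (2.35%). The best boundary fold was 3.54 for Zscan4, 3.22 for Tdpoz, 3.59 for the Usp17-like genes, 3.9 for Obox and 3.18 for the vomeronasal receptors. From first to last member, Zscan4 had 13.2 summits per 100 kb, Tdpoz 18.7, Obox 18.2 and the Usp17-like genes 2.17. The vomeronasal receptors had 6.77, over a span of 22837 kb that takes in the Zscan4 and Obox genes. These differences were not tested, because copies within a family share sequence.

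**Figure D5:**
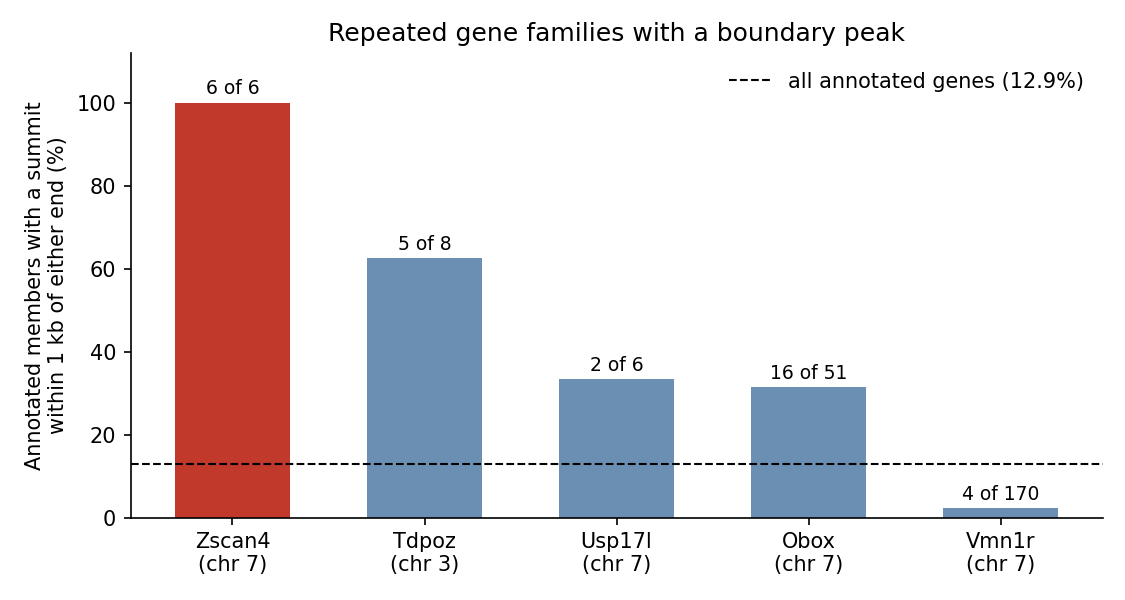
Percent of annotated members with a summit within 1 kb of either end (vertical axis) for Zscan4 (red) and 4 other repeated families (blue), with the number of members above each bar. The dashed line is the share of all annotated genes (12.9%), and Zscan4 is at 6 of 6. The other families include all annotated pseudogenes, and with its 3 further pseudogene copies Zscan4 would be at 8 of 9.

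Of 190 other symbol families with at least 5 members within 3 Mb, 27 (14.2%) had more summits per 100 kb than Zscan4, 26 had none, and the median was 1.9. The closest in density were the Hoxa homeobox genes (13.3 per 100 kb, 3 of 11 members with a boundary summit), the major urinary protein genes Mup (12.9, 15 of 44) and the tRNA genes n-TCgca (13.5, 10 of 48). The carboxylesterase genes Ces2 (14, 4 of 8) and the tRNA genes n-THgtg (14.4, 3 of 6) followed. This likeness is one of peak density over 1 stretch each, and no more.

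A list of other genes of the 2-cell state held 30 annotated genes, the 3 Zscan4 pseudogenes included. A boundary summit was found at 19 of them (63.3%), read against the same 12.9% of all genes. Of its 26 protein-coding genes 16 had one, where the share of all protein-coding genes was 18.9%. The highest folds were at Duxf3 (7.6), a copy of the Dux activator, Gm4027 (6.4), Sp110 (5.17) and Gm2016 (4.72), all above the 2.68 to 3.54 of the Zscan4 copies. Peaks were frequent around these genes: 12 (Duxf3), 39 (Gm4027), 78 (Sp110) and 53 (Gm2016) summits lay 5 to 55 kb outside. The median of all genes was 1. Arg2, Gm21319 and Obox1 were among those without a boundary summit, and had 8, 15 and 9 such summits outside. The part of local peak density in the share of this list was not tested. Of 26 protein-coding genes known to regulate Zscan4 or to work with its product, 13 (50%) had one, read against the 18.9% of all protein-coding genes. Nelfa led with 7.76, but reads of the added NELFA gene cannot be told apart from those of the native gene. Duxf3, the co-repressor gene Trim28 (4.77) and the histone methyltransferase gene Setdb1 (2.81) followed. Atrx, Chaf1a and Chaf1b were among those without. Nelfa, Duxf3, Trim28 and Setdb1 had 1, 12, 2 and 12 summits 5 to 55 kb outside, and Atrx, Chaf1a and Chaf1b 1, 1 and 2. The part of local peak density was not tested for this list either. Duxf3 is in both lists, and both were chosen with earlier results of these data known.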

How the data were processed

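One ChIP-seq peak list in narrowPeak layout was analysed. The submitters' processing notes name bedtools, MACS2, SAMtools 1.4, Bowtie2 2.2.9 and Trim Galore 0.4.2, with mm10. No source used here gives the peak-calling settings, the pooling of libraries or the read depth, or says what the tags R1234 and MAPQ0 in the peak names mean. The deposited fold is a linear ratio per peak, and the deposited significance is a −log10 q-value (lowest 1.31). The deposited integer score was not used. The p-value column was left aside.

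Summits are the deposited start plus offset, written from 1. Genes came from RefSeq GRCm38.p6, chromosomes 1 to 19, X and Y. Outside chromosome Y, 340 rows starting before 3 Mb, taken to lie on scaffolds, were left out. All 6 members matched by symbol, 4 of them in the promoter table. Promoter windows were aligned with end gaps free (match 1, mismatch -1, gap opening -5, extension -1). No test was planned or run. The search for boundary summits was checked on planted summits. The members and lists were chosen with earlier results of these data known. Genes were named by a rule: all members, other Zscan4 copies, the nearest genes outside the array, the 10 strongest peaks of the interval, up to 4 members with and 3 without a boundary summit per list, and the 5 families closest in density. Alternatives were other windows, peak filters and extents. Python 3.11.15, numpy 2.4.6, pandas 2.3.3, scipy 1.17.1, matplotlib 3.10.9 and Biopython 1.88 were used.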

Additional observations from a re-analysis of the deposited data

How the results depend on the processing

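The list holds 1 value per peak and no read depth, so no replicate could be left out and no interval for a fold could be given. No paired analysis was possible because no column belongs to a library. With a −log10 q of at least 4, the interval held 44 peaks in place of 94, their median fold was 2.7 in place of 2.18, the share of summits assigned to a copy was 36.4% in place of 34%, and the density from the first to the last copy was 6.58 summits per 100 kb in place of 13.2. All 6 copies still had a boundary summit, against 6.98% of all annotated genes. At or above the median fold of the whole list, 59 peaks were left, and weighting by width gave a median fold of 3.27. These follow from keeping fewer peaks or giving wide peaks more weight. The number of copies with a boundary summit was 5 within 500 bp and 6 within 2 kb, against 10.5% and 16% of all genes. Summits assigned to a copy made up 25.5% with the gene alone and 41.5% with 5 kb on each side.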
